A study of Mus musculus with 15 samples.

Results

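The comparison set 2 mutant lines of the blood transcription factor GATA1 directly against each other: 3 arrays of cells that express D218Y against 3 arrays of cells that express R216Q, chosen by their titles from the 15 arrays of the series. All arrays came from G1E, a mouse line of proerythroblast-like cells that lacks GATA1. The cells carried GATA1(D218Y)-ER, GATA1(R216Q)-ER or unchanged GATA1-ER, that is, GATA1 joined to an estrogen receptor domain so that estradiol switches it on. Every culture, the wild type ones included, had received 100 nM estradiol for 24 hours, and each line was represented by 3 biological replicates. The wild type arrays serve here as a landmark, and 2 further mutant lines (R216W and D218G) entered the estimate of the spread between arrays, the principal components and the choice of probe sets, but no difference given here. The labels do not say whether a construct was carried by more than 1 independently made line. An effect of the mutation and one of the line it sits in therefore cannot be told apart, and the p-values reflect the scatter of these cultures alone.

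GATA1 binds the DNA sequence GATA through its C-terminal zinc finger, while its N-terminal finger binds the cofactor FOG1 (gene Zfpm1) and adds contacts to some DNA sites. With FOG1, and with a complex that includes TAL1, LMO2 and LDB1, GATA1 turns on red cell genes and turns off genes of immature progenitors such as Gata2 and Kit. Residues R216 and D218 both lie in the N-terminal finger, R216 on the side that faces DNA and D218 on the side that faces FOG1, and inherited changes at both sites cause low platelet counts and red cell disorders in people.

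The deposited values are log2 expression values, on which a difference of 1 is a 2-fold difference. They are written below as expression, and a difference is always D218Y minus R216Q unless wild type is named. Of 28350 probe sets, those with 1 gene symbol gave 19933 genes. Array medians lay between 6.38 and 6.43 in D218Y and between 6.46 and 6.54 in R216Q. The median SD of a gene over the 3 arrays was 0.05 in D218Y and 0.055 in R216Q. The number of arrays limits the precision. On the first principal component of all 15 arrays the D218Y arrays lay between 34.53 and 37.11, the R216Q arrays between -1.36 and 2.05 and the wild type arrays between -22.49 and -18.85. Alas2, Klf1, Epor and Rhag, genes of red cell precursors, were expressed above the array median in both lines. All 15 measured genes of haem synthesis and its transporters lay above the median of all genes in both lines. So did 26 of 29 membrane and skeleton genes in D218Y and 27 in R216Q. Of 6 globin genes 3 did so in D218Y and 5 in R216Q.

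Gata1 itself was expressed at 12.07, 12.05 and 12.08 in the D218Y arrays, against 12.16, 12.15 and 12.14 in the R216Q arrays and 12.35 to 12.36 in wild type. The D218Y arrays all lay just below the R216Q arrays. The difference of -0.08 ± 0.03 (SE, n = 3 per line) passed at an adjusted p of 0.0464, but it was 0.01 (adjusted p = 0.966) when each array's median was subtracted, and it missed the threshold without any one of the 6 arrays. An exact two-sided permutation test of the 6 arrays gave p = 0.1, the smallest it can give. Whether this probe set also reads transcript of the disrupted Gata1 allele of G1E cells, beside that of the construct, was not tested.

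D218Y and R216Q cells differed at many genes by a little and at few by much. In D218Y cells the red cell anion exchanger Slc4a1 and the haem enzyme gene Alas2 were far lower, and some genes of progenitors and of mast cells, such as Gata2 and Tpsab1, were higher. By limma with Benjamini-Hochberg adjustment 6343 of 19933 genes differed (31.8%), 3281 of them higher (16.5%) and 3062 lower (15.4%) in D218Y. With each array's median subtracted, 75.8% of the calls were higher, against 51.7% in the deposited values. At least 2-fold differences held for 210 genes (1.05%), of which 133 were higher (0.667%) and 77 lower (0.386%), and 20 genes reached 4-fold, 11 higher and 9 lower. By contrast, 5423 of the called genes (85.5%) differed by less than 1.5-fold. The 3 arrays of one line did not overlap with those of the other at 9993 genes (50.1%), of which 4163 were higher (20.9%) and 5830 lower (29.2%) in D218Y. Against the shared wild type arrays 44.4% of genes differed in D218Y and 21.5% in R216Q, and 3.57% and 0.502% did so by at least 2-fold. Among the 8191 genes with a mean level up to 6, 1.65% were called higher and 6.9% lower, with a median difference of -0.06, and among the 4135 genes with a level from 8 to 10 the shares were 37.6% and 22.2%, with a median of 0.06.

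**Figure D1:**
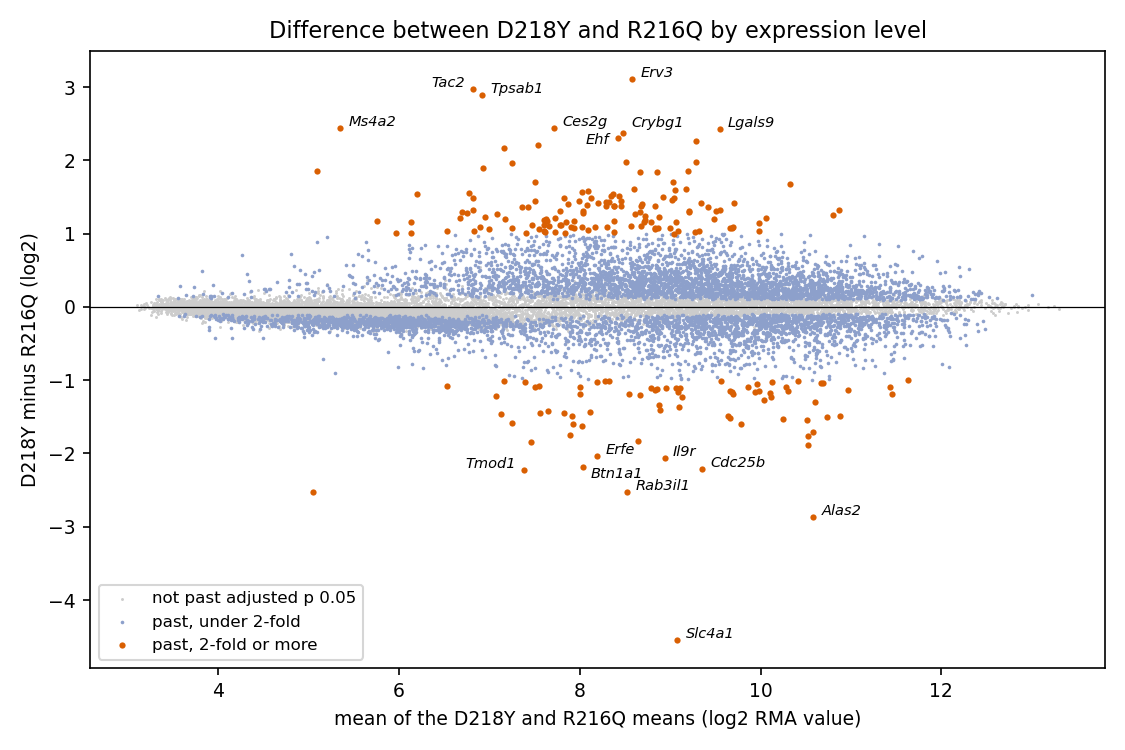
Difference between the D218Y and R216Q means (log2, vertical axis) against the mean of both line means (log2 RMA value, horizontal axis), 1 point per gene for 19933 genes. Orange points passed the adjusted p and differed at least 2-fold. Slc4a1 at -4.54 and Alas2 at -2.87 are the lowest named points, and Erv3 at 3.11 is the highest.

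The red cell membrane held the widest gap between the lines. Slc4a1, which encodes the anion exchanger band 3, was expressed at 6.77, 6.93 and 6.72 in the D218Y arrays, against 11.33, 11.29 and 11.43 in the R216Q arrays and 12.36 to 12.45 in wild type. The D218Y arrays lay little above the array median, while the R216Q arrays remained near the top of the range, with no overlap. The difference was -4.54 ± 0.05 (SE, n = 3 per line, adjusted p = 3.95e-16), which is 23.3-fold lower in D218Y, and it was the largest fall of any gene tested. Tmod1, a cap of the short actin filaments of the red cell skeleton, was expressed at 6.29, 6.38 and 6.15 in D218Y, against 8.51, 8.54 and 8.42 in R216Q (-2.22 ± 0.06, adjusted p = 1.09e-12). A dimmer probe set of Tmod1 gave -0.28 (adjusted p = 0.0712), so its size depends on the probe set. Dmtn, the actin-bundling protein dematin, fell by 1.84 ± 0.05, and Rhd and Rhag, proteins of the Rh complex, fell by 1.14 and 1.00. In bulk RNA, fewer maturing cells and less of a transcript per cell cannot be told apart.

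Of 29 membrane and skeleton genes measured 22 fell, 5 rose and 2 did not pass, against 15.4% lower and 16.5% higher among all genes, and their median difference was -0.51, against -0.05 over all genes. Those that fell included Epb42 (band 4.2, -0.93), Ank1 (ankyrin, -0.61), Sptb (beta spectrin, -0.53), Gypc (glycophorin C, -0.53) and Kel (-0.15). The 5 that rose were Tmod3 (0.86), a tropomodulin also found outside red cells, the nucleoside transporter gene Slc29a1 (0.76), the carbonic anhydrase gene Car1 (0.46), the glucose transporter gene Slc2a1 (0.28) and Stom (0.20). Aqp1, the red cell water channel, did not pass (-0.13). Set against the wild type arrays, which both comparisons share, the median over the list was -0.62 in D218Y and -0.16 in R216Q. With array medians subtracted 18 genes of the list fell and 6 rose.

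Haem synthesis divided by enzyme. Alas2, the erythroid and rate-limiting first enzyme, was expressed at 9.32, 9.03 and 9.09 in the D218Y arrays, against 12.04, 12.03 and 11.98 in the R216Q arrays and 12.29 to 12.35 in wild type. R216Q cells lay 0.31 below wild type, whereas all D218Y arrays lay clear of both. The difference was -2.87 ± 0.06 (adjusted p = 1.43e-13), or 7.31-fold lower in D218Y. Slc25a37, which carries iron into mitochondria, fell by 1.89 ± 0.03 (9.56 to 9.61 in D218Y, against 11.47 to 11.48 in R216Q), and its partner Abcb10 fell by 1.19 ± 0.04. All 15 measured genes of haem synthesis and its transporters passed: 12 fell (11 with array medians subtracted) and 3 rose, with a median of -0.54. Over all genes 15.4% fell and 16.5% rose. The enzyme genes Alad (-0.82), Fech (-0.80), Uros (-0.78), Urod (-0.54) and Cpox (-0.17) fell. Ppox rose (0.43 ± 0.04), as did the haem exporter gene Flvcr1 (0.29) and Alas1, the form of the first enzyme used by most cells (0.29).

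The promoter of Alas2 is shown because its gene fell furthest among those of haem synthesis and because the window holds a GATA motif. RefSeq (GRCm38.p6) places the window around the start at chrX:150547167-150547466 on the plus strand. Capitals mark the motif, here AGATAA read on the opposite strand, at -86 from the start.
Alas2 promoter: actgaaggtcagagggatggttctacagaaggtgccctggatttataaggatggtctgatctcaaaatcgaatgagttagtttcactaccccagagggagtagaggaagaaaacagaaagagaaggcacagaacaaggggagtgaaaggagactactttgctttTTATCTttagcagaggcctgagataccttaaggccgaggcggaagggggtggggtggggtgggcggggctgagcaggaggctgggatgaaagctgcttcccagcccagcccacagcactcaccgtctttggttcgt
The motif search covered AGATAA and its variants with T as the first letter, with G as the last letter or with both, on either strand. At least 1 of them was in a window of this length for 28.0% of the 15610 tested genes with a promoter in the RefSeq table, and AGATAA alone for 10.8%. Of the 15 largest falls 9 had a promoter there, and 4 of those (44.4%) held such a motif. Some genes had several windows, and per window the shares were 37.5% for these falls and 24.6% for all genes. Of 13 genes of haem synthesis and its transporters with a promoter there, 3 (23.1%) held such a motif. A match of letters is a description of the window and not a measured binding site.

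Every globin gene analysed was lower in D218Y. All 6 fell, against 15.4% of all genes, with a median of -0.96. Their arrays did not overlap between the lines, with D218Y lower, as was so at 29.2% of all genes. Hbb-bh1, an embryonic beta-like globin, was expressed at 9.69, 9.64 and 9.59 in D218Y, against 11.47, 11.54 and 11.22 in R216Q and 11.34 to 11.44 in wild type. R216Q cells were at the wild type level for this gene, 0.01 away, and D218Y cells lay below both. The difference was -1.77 ± 0.10 (adjusted p = 5.27e-09). Hba-x, an embryonic alpha-like globin, stood otherwise: it was expressed at 6.64, 6.71 and 6.6 in D218Y, against 7.64, 7.63 and 7.72 in R216Q and 9.58 to 9.78 in wild type. Here R216Q cells lay nearer to D218Y than to wild type, and the lines differed by -1.01 ± 0.07. Hbq1b (-1.48), Hbq1a (-0.91), Hbb-y (-0.78) and Hbb-bh2 (-0.58) made up the rest. Hbq1a and Hbq1b are near-identical copies, so probes could read both. The adult globin genes were measured by probe sets with several symbols and are not analysed here.

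Iron handling went both ways, with 9 of 19 genes lower, 3 higher and 7 not past the test (median -0.12). Among all genes 15.4% were lower and 16.5% higher. Erfe, the hormone erythroferrone that erythroblasts release to lower hepcidin, was expressed at 7.18, 7.18 and 7.14 in D218Y, against 9.28, 9.21 and 9.15 in R216Q. It fell by 2.04 ± 0.04 (adjusted p = 1.43e-13). The transferrin receptor gene Tfrc (-0.40), the ferritin cargo receptor gene Ncoa4 (-0.71) and Glrx5 of iron-sulfur cluster assembly (-0.40) also fell. Tfr2, the second transferrin receptor, rose by 1.26 ± 0.06, as did the haem-degrading enzyme gene Hmox1 (0.80 ± 0.09). With array medians subtracted, 6 of the genes were lower.

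**Figure D2:**
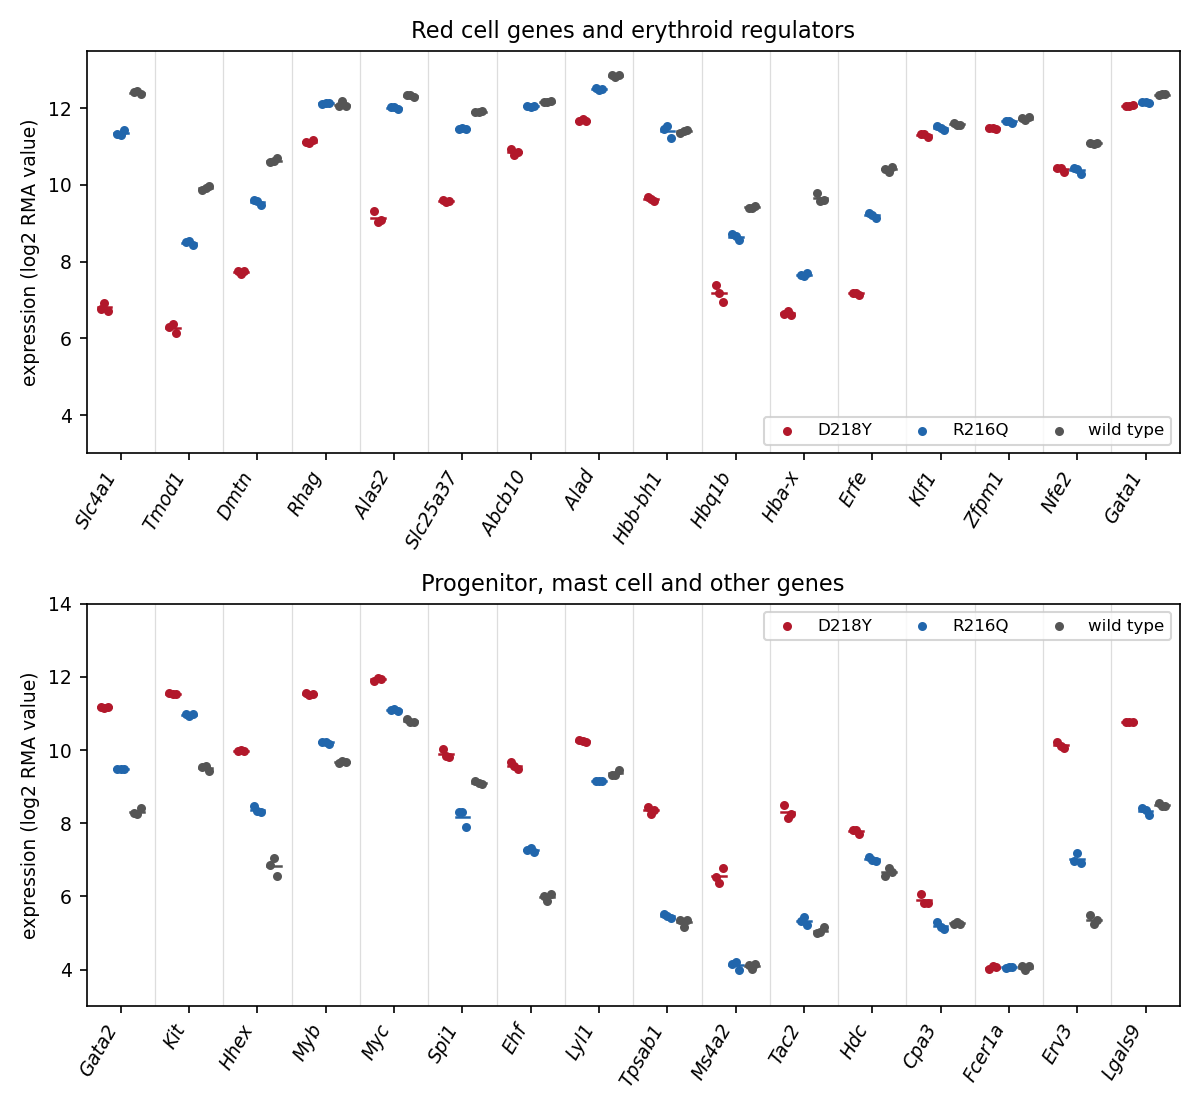
Expression (log2 RMA value, vertical axis) of red cell genes and regulators (top) and of progenitor, mast cell and other genes (bottom) in every array of D218Y, R216Q and wild type; points are arrays and lines are means of 3. Slc4a1 in D218Y lies between 6.72 and 6.93, far below both other groups, Nfe2 overlaps between D218Y and R216Q, and Gata2 in D218Y lies between 11.15 and 11.17.

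Regulators of red cell genes went both ways. Klf1, the erythroid Krüppel-like factor, was expressed at 11.33, 11.32 and 11.24 in D218Y, against 11.53, 11.49 and 11.43 in R216Q (-0.19 ± 0.04, adjusted p = 0.00102), and Zfpm1 fell by 0.18 ± 0.03. With array medians subtracted neither passed: Klf1 was at -0.10 (adjusted p = 0.279) and Zfpm1 at -0.09 (adjusted p = 0.255). Nfe2, the erythroid and megakaryocyte leucine zipper factor, was expressed at 10.45, 10.43 and 10.35 in D218Y, against 10.45, 10.41 and 10.29 in R216Q. These arrays overlapped, and the difference was 0.02 with a 95% interval of -0.07 to 0.12 (adjusted p = 0.714), while both lines lay below wild type (11.08 to 11.10). Of 30 partners and regulators 14 fell, 10 rose and 6 did not pass, with a median of -0.10. With array medians subtracted 5 fell and 10 rose. The shares over all genes, as deposited, were 15.4% lower and 16.5% higher. The members of the GATA1 complex did not move together. Tal1 fell by 0.68 ± 0.04, while its relative Lyl1 rose by 1.09 ± 0.05 (10.21 to 10.28 in D218Y, against 9.15 to 9.16 in R216Q). Lmo2 (0.42), the corepressor gene Cbfa2t3 (0.43), Tcf3 (0.38) and Ldb1 (0.18) rose too. Against wild type, Lyl1 was at 0.87 in D218Y and -0.22 in R216Q. Tcf3 was at 0.0012 in D218Y and -0.38 in R216Q, and Cbfa2t3 at -0.13 and -0.56. Trim10 (-0.97), an erythroid ubiquitin ligase family gene, and Klf3 (-0.78), a repressor that Klf1 turns on, had the largest falls of the list.

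Gata2 and Kit, genes that GATA1 is known to silence, were higher in D218Y. Gata2, the GATA factor of progenitors, was expressed at 11.17, 11.15 and 11.16 in the D218Y arrays, against 9.48, 9.49 and 9.48 in the R216Q arrays and 8.25 to 8.41 in wild type. The 3 groups did not overlap, with R216Q in between. The difference of 1.68 ± 0.04 (adjusted p = 1.25e-12) is 3.21-fold. Kit, the stem cell factor receptor gene, was expressed at 11.53 to 11.55 in D218Y, against 10.93 to 10.98 in R216Q and 9.42 to 9.56 in wild type. It rose by only 0.58 ± 0.04, since R216Q cells were themselves 1.45 above wild type. Myb, a progenitor factor, rose by 1.32 ± 0.03, Hhex, a homeobox factor of early blood cells, by 1.61 ± 0.10. Myc, a driver of growth, rose by 0.83 ± 0.05. The 27 progenitor genes divided: 11 rose, 2 fell and 14 did not pass (median 0.04), against 16.5% higher and 15.4% lower among all genes. The 2 that fell were Runx1 (-0.76 ± 0.04), a factor needed for blood stem cells to arise, and Adgrg1 (-1.06 ± 0.04), an adhesion receptor of stem cells.

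ETS factors, many of which oppose or share targets with GATA1, held some of the largest rises. Spi1 encodes PU.1, which drives myeloid fate. Its expression was 10.02, 9.83 and 9.80 in D218Y, against 8.31, 8.31 and 7.90 in R216Q and 9.08 to 9.15 in wild type. The lines lay on opposite sides of wild type, D218Y above and R216Q below, and differed by 1.71 ± 0.10 (adjusted p = 3.75e-09). Ehf, an ETS gene known mainly from epithelia, rose by 2.31 ± 0.07 (9.48 to 9.67 in D218Y, against 7.21 to 7.31 in R216Q). Ets2 (1.15 ± 0.05), Etv5 (0.85), Etv6 (0.83) and Fli1 (0.26), a megakaryocyte factor, rose as well. In all 9 of 18 ETS genes rose, 3 fell and 6 did not pass, with a median of 0.07. Of all genes 16.5% rose and 15.4% fell. With array medians subtracted 9 ETS genes rose and none fell. Spi1, Etv6, Fli1 and Erg were counted in both this list and that of progenitor genes.

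A few mast cell genes separated the lines, and most did not. Tpsab1, a mast cell tryptase, was expressed at 8.45, 8.25 and 8.36 in the D218Y arrays, against 5.52, 5.47 and 5.42 in the R216Q arrays and 5.15 to 5.37 in wild type. Ms4a2, the beta chain of the high-affinity IgE receptor, was expressed at 6.54, 6.36 and 6.78 in D218Y, against 4.16, 4.21 and 4.0 in R216Q and 4.02 to 4.16 in wild type. R216Q cells stayed near the wild type level, 0.17 above it for Tpsab1 and 0.02 above it for Ms4a2. The D218Y arrays lay far above both groups. Tpsab1 rose by 2.89 ± 0.06 (7.39-fold, adjusted p = 1.59e-13) and Ms4a2 by 2.44 ± 0.08 (5.41-fold, adjusted p = 2.63e-11). Hdc, which makes histamine, Tph1, which starts serotonin synthesis, and Cpa3, a granule protease, rose by 0.76, 0.73 and 0.72. The other 15 of 20 mast cell and basophil genes did not pass, and the median over all 20 was -0.02. Among all genes tested 16.5% rose and 15.4% fell. Fcer1a, the chain of the IgE receptor that binds IgE, was near the bottom of the range in both lines, at 4.02, 4.09 and 4.07 in D218Y and 4.04, 4.08 and 4.08 in R216Q, and the granule protease genes Mcpt1, Mcpt2 and Mcpt4 lay between 3.69 and 4.41 in both lines. The mean level over the list was 5.49 to 5.52 in D218Y arrays and 5.16 to 5.20 in R216Q arrays, with 4 and 2 members above the median of all genes. A part of other cells in these values was not tested.

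The promoter of Ms4a2 is shown because the window of this gene, low in wild type and R216Q and higher in D218Y, holds 3 matches of AGATAA on either strand. It lies at chr19:11623670-11623969 on the minus strand (RefSeq, GRCm38.p6), printed as the gene reads, with the matches in capitals.
Ms4a2 promoter: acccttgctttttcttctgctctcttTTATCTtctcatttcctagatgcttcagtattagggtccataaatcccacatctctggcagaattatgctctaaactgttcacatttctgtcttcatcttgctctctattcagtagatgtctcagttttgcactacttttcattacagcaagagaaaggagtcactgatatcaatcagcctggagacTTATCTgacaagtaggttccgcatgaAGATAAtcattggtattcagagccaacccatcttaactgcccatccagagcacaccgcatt
Of the 15 largest rises 10 had a promoter in the RefSeq table, and 5 of those held a GATA motif as defined for Alas2, against 28.0% of all genes with a promoter. The promoter windows of Gata2, Tac2 and Hhex held none, which says only that these letters are not in the window.

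The mean level of the granulocyte and monocyte markers was 5.50 to 5.59 in D218Y arrays and 5.64 to 5.69 in R216Q arrays, under the array medians. Lymphoid markers lay at 5.06 to 5.11 and 5.16 to 5.24, with no member above the median of all genes in either line. Stromal and endothelial markers lay at 5.65 to 5.71 and 5.74 to 5.85, with 4 and 3 members above it. Megakaryocyte and platelet markers were not all low: 8 of 16 lay above the median of all genes in D218Y and 7 in R216Q. Of 20 granulocyte and monocyte markers 1 rose and 5 fell, of 16 lymphoid markers none rose and 3 fell, and of 11 stromal and endothelial markers none rose and 1 fell, against 16.5% higher and 15.4% lower among all genes. With array medians subtracted 1 granulocyte and monocyte marker and 1 lymphoid marker fell. Of 16 megakaryocyte and platelet markers 2 rose and 4 fell (median -0.09). Itgb3, the beta chain of the platelet fibrinogen receptor, was expressed at 6.89, 6.87 and 6.74 in D218Y, against 8.29, 8.28 and 8.29 in R216Q (-1.45 ± 0.05). Its partner Itga2b fell by 0.27, and Tubb1, the tubulin of platelets, by 1.09 ± 0.09. Gp5, a subunit of the von Willebrand factor receptor complex, went the other way (1.23 ± 0.08), while Gp9 of the same complex fell by 0.32. Pf4, a platelet chemokine, was near the bottom of the range (4.93 in every D218Y array, against 4.81 to 4.93 in R216Q). With array medians subtracted the median over the megakaryocyte list changed sign, as did those of the mast cell, lymphoid, DNA replication and Bcl2 family lists, and that of the mast cell list also under quantile and cyclic loess normalization.

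The largest rises outside these lists were led by Erv3, an endogenous retroviral gene, which was expressed at 10.21, 10.12 and 10.07 in D218Y, against 6.97, 7.18 and 6.91 in R216Q and 5.25 to 5.48 in wild type. It rose by 3.11 ± 0.09 (8.65-fold, adjusted p = 3.78e-12), and R216Q arrays already lay above wild type. Tac2, a tachykinin peptide gene, was expressed at 8.51, 8.14 and 8.27 in D218Y, against 5.33, 5.43 and 5.23 in R216Q and 5.01 to 5.16 in wild type (2.97 ± 0.09). Lgals9, the galactose-binding protein galectin-9, was at 10.76 in all D218Y arrays, against 8.42, 8.36 and 8.23 in R216Q (2.42 ± 0.05), with R216Q slightly below wild type. Ces2g, a carboxylesterase (2.44), Gsta4, a glutathione transferase (2.26), Itpkb, an inositol phosphate kinase of lymphocyte signalling (2.21), Fgf15, a growth factor (1.98), and Npl, a sialic acid lyase (1.98), followed. Crybg1 rose by 2.37 on its brighter probe set, while its other probe set gave -0.14 (adjusted p = 0.139). Among the falls outside the lists, Rab3il1, an exchange factor for Rab proteins, was expressed at 7.15, 7.36 and 7.29 in D218Y, against 9.83, 9.82 and 9.72 in R216Q (-2.52 ± 0.05). Cdc25b, a phosphatase that drives entry into mitosis, fell by 2.22 ± 0.04 and Atp1b2, a sodium pump subunit, by 1.70 ± 0.03. For Cdc25b the R216Q arrays, at 10.41 to 10.52, lay above wild type (10.12).

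**Figure D3:**
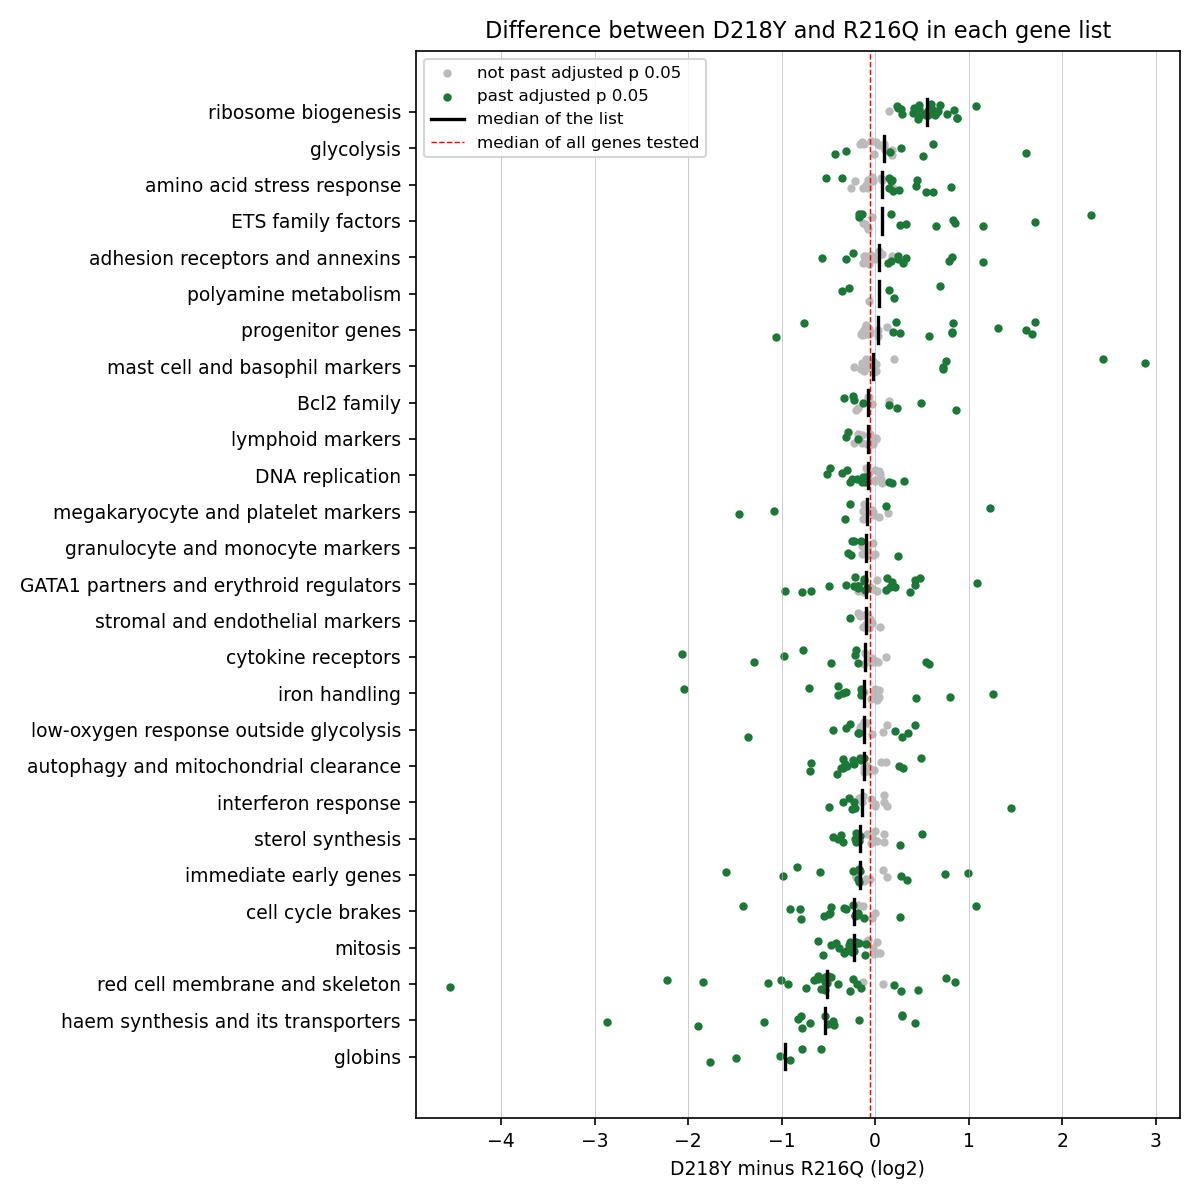
Difference of each measured gene (D218Y minus R216Q, log2, horizontal axis) in 27 gene lists, ordered by their medians; green points passed an adjusted p of 0.05 over all genes, black bars are list medians and the dashed line is the median of all genes (-0.05). Ribosome biogenesis genes lie to the right of 0 throughout (median 0.56), and globins lie to the left (median -0.96).

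The largest differences among cytokine receptors were falls. Il9r, the interleukin 9 receptor gene, was expressed at 7.89, 7.95 and 7.88 in D218Y, against a mean of 9.97 ± 0.04 (SD, n = 3) in R216Q, whose lowest array read 9.93, and 8.98 to 9.03 in wild type. D218Y lay below and R216Q above wild type by about the same distance, -1.10 and 0.96, and the lines differed by -2.06 ± 0.05 (adjusted p = 3.97e-13). Csf2rb2 and Csf2rb, beta chains of the receptors for interleukin 3 and related cytokines, fell by 1.30 ± 0.04 and 0.77 ± 0.04. They are close paralogs, so probes could read both. Il4ra fell by 0.98 ± 0.06, again with R216Q above wild type (8.47 to 8.70, against 7.71 to 7.79). Of 19 receptor genes 8 fell, 2 (Kit and Ifngr1) rose and 9 did not pass, and 5 fell with array medians subtracted. The deposited values gave 15.4% lower and 16.5% higher among all genes.

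Ribosome biogenesis was the list with the most members called one way. Of 30 genes 29 rose and none fell, against 16.5% and 15.4% of all genes, with a median of 0.56. Npm1 (0.14) was the gene not past the test. The counts were 29 and 0 with array medians subtracted as well. Rrp1b, a processing factor of ribosomal RNA, was expressed at 10.23, 10.24 and 10.19 in D218Y, against 9.12, 9.13 and 9.19 in R216Q and 8.20 to 8.22 in wild type (1.08 ± 0.05). Polr1b and Polr1e, subunits of RNA polymerase I, rose by 0.84 and 0.88, and Rrs1, an assembly factor, by 0.88. Srm, which makes the polyamine spermidine, rose by 0.69 ± 0.05, whereas Odc1, the enzyme before it, rose by 0.21. Against the shared wild type arrays the list's median was 0.91 in D218Y and 0.40 in R216Q.

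The cell cycle lists leaned lower, set against 15.4% lower and 16.5% higher among all genes. Of 26 mitosis genes 19 fell and none rose (median -0.23), led by Nusap1 (-0.61), a spindle protein, and the kinetochore gene Cenpf (-0.56); with array medians subtracted 9 fell. Cdk1, the mitotic kinase, was at 0.05 and did not pass. Of 22 genes that restrain the cycle 16 fell and 2 rose (median -0.22). Gadd45a, a stress-induced brake, was expressed at 8.19, 8.17 and 8.17 in D218Y, against 9.56, 9.52 and 9.69 in R216Q (-1.41 ± 0.06). Cdkn2c (-0.91) and Cdkn1b (-0.80), inhibitors of cyclin-dependent kinases, fell, while Tob1, an antiproliferative gene, rose by 1.08 ± 0.05. Of 27 DNA replication genes 11 fell, 3 rose and 13 did not pass. With array medians subtracted 10 of the restraining genes and 4 of the replication genes fell. In glycolysis 5 of 19 genes rose and 2 fell, to be set beside the same shares over all genes. Hk2, a hexokinase, was expressed at 9.43, 9.41 and 9.37 in D218Y, against 7.90, 7.56 and 7.90 in R216Q and 6.68 to 6.97 in wild type (1.61 ± 0.09). Bpgm, which makes the red cell regulator of haemoglobin oxygen affinity, fell by 0.43.

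The microRNA genes were outside the rule by which genes were named, and the clusters given here were chosen after their values were seen. Array probes read the gene or precursor transcript and not the mature microRNA. The sequences are shown so that members with one seed can be seen: RefSeq (GRCm38.p6) places the miR-17 cluster on the plus strand of chromosome 14, with miR-17-5p at chr14:115043684-115043706 and miR-19b-3p at chr14:115044358-115044380. Capitals mark the seed, bases 2 to 8.
miR-17-5p: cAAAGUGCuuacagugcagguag
miR-20a-5p: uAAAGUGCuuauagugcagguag
miR-18a-5p: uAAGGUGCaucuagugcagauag
miR-19a-3p: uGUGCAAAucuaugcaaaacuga
miR-19b-3p: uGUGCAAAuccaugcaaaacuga
miR-144-3p: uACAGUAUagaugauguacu
miR-451a: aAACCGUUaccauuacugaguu
The seed AAAGUGC is shared by miR-17-5p and miR-20a-5p, and GUGCAAA by both miR-19 members. The last pair, miR-144 and miR-451a, comes from a cluster on chromosome 11 that GATA1 is known to turn on in red cells.

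All 6 measured genes of the miR-17 cluster were higher in D218Y. Mir19a was expressed at 7.37, 7.28 and 7.51 in D218Y, against 6.10, 6.38 and 5.83 in R216Q and 5.83 to 6.04 in wild type. R216Q arrays overlapped with wild type, while D218Y arrays lay above both (1.28 ± 0.14, adjusted p = 3.48e-06). Mir19b-1 rose by 1.06 ± 0.11, Mir18 by 0.91 ± 0.12, Mir20a by 0.77 ± 0.12 and Mir17 by 0.76 ± 0.11. Mir17hg, the host transcript that contains them all, rose by 0.54 ± 0.06, so these are readings along one transcript and not separate genes. Over all 300 microRNA genes measured, Mir17hg among them, 12 were higher and 44 lower, with a median of -0.05. All 6 readings of the miR-17 cluster were among the 12. The share called was 18.7%, against 31.8% of all genes (16.5% higher and 15.4% lower). Mir144 was expressed at 7.20, 6.87 and 6.85 in D218Y, against 7.64, 7.91 and 6.96 in R216Q and 8.23 to 8.56 in wild type. The arrays overlapped, and the difference of -0.53 ± 0.19 had an adjusted p of 0.0489 that rose above the threshold under 11 of 18 other settings. Mir451a, at 7.17 to 7.5 in D218Y and 7.42 to 7.94 in R216Q, overlapped too (-0.45 ± 0.12, adjusted p = 0.0112).

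**Figure D4:**
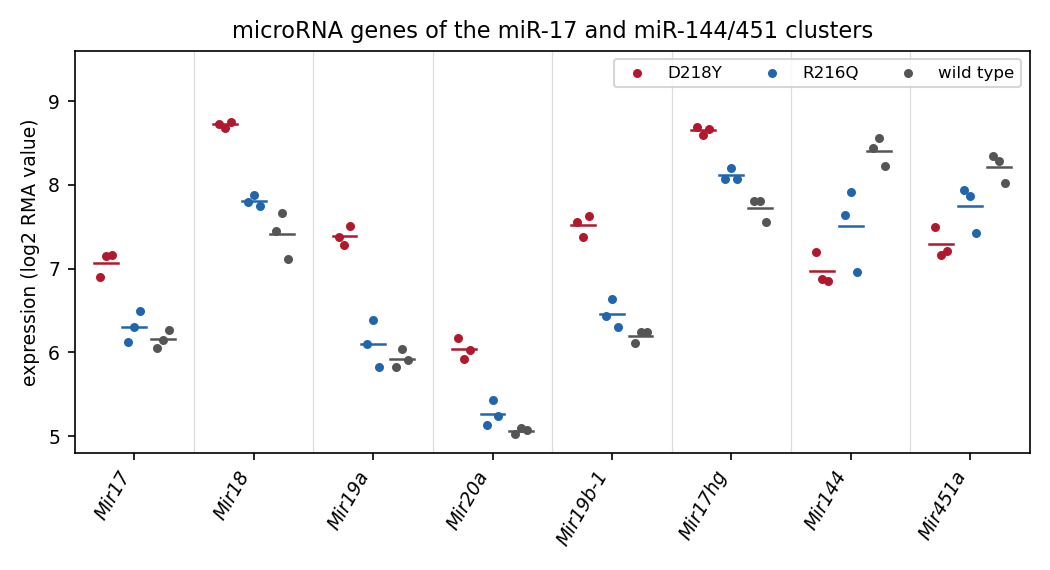
Expression (log2 RMA value, vertical axis) of the genes of the miR-17 cluster with its host transcript and of Mir144 and Mir451a in every array of D218Y, R216Q and wild type; points are arrays and lines are means of 3. Mir18 lies between 8.68 and 8.75 in D218Y and between 7.75 and 7.88 in R216Q, while Mir144 overlaps between these lines.

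D218Y did not lie beyond R216Q at every gene. At 179 genes, leaving out small RNAs and placeholder names, the lines lay on opposite sides of wild type, both past the adjusted p against it. Besides Il9r and Spi1, Id1, an inhibitor of helix-loop-helix factors, was expressed at 9.81, 9.80 and 9.75 in D218Y, against 8.38, 8.28 and 8.24 in R216Q and 8.79 to 8.84 in wild type (1.48 ± 0.05). Zfp36, which destabilises messenger RNAs, did the reverse, at 7.14, 7.09 and 7.14 in D218Y, against 8.73, 8.80 and 8.62 in R216Q and 7.78 to 7.83 in wild type (-1.59 ± 0.05). At other genes R216Q lay farther from wild type. Tmod3 was at 9.74 to 9.76 in D218Y, against 8.87 to 8.92 in R216Q and 10.68 to 10.72 in wild type, so that it counts as higher in D218Y although both lines were below wild type. Septin4, a filament-forming GTP-binding protein, was at 8.08 to 8.09 in D218Y, against 6.81 to 7.31 in R216Q and 8.29 to 8.48 in wild type. Grk5, a receptor kinase gene, was at 7.99 to 8.09 in D218Y, against 8.79 to 8.85 in R216Q and 7.81 to 7.98 in wild type.

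A further set lay at least 2-fold from wild type in both lines and close together between them. Plek, the platelet protein pleckstrin, was expressed at 8.69, 8.50 and 8.52 in D218Y, against 8.44, 8.41 and 8.46 in R216Q and 9.95 to 10.10 in wild type. The difference between the mutant lines was 0.13 with a 95% interval of -0.03 to 0.30 (adjusted p = 0.203). Pfkp, a phosphofructokinase of glycolysis, was 1.36 above wild type in D218Y and 1.40 above it in R216Q, and the lines differed by -0.04 (95% interval -0.16 to 0.08). Dlc1, a tumour suppressor gene, and Micall2, a protein of cell junctions, each differed by -0.02 (95% interval -0.17 to 0.13 for both). These genes were picked for the narrow interval, so their closeness is a description. Over all genes the root mean square difference was 0.275 between D218Y and R216Q, 0.404 between D218Y and wild type and 0.205 between R216Q and wild type.

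**Figure D5:**
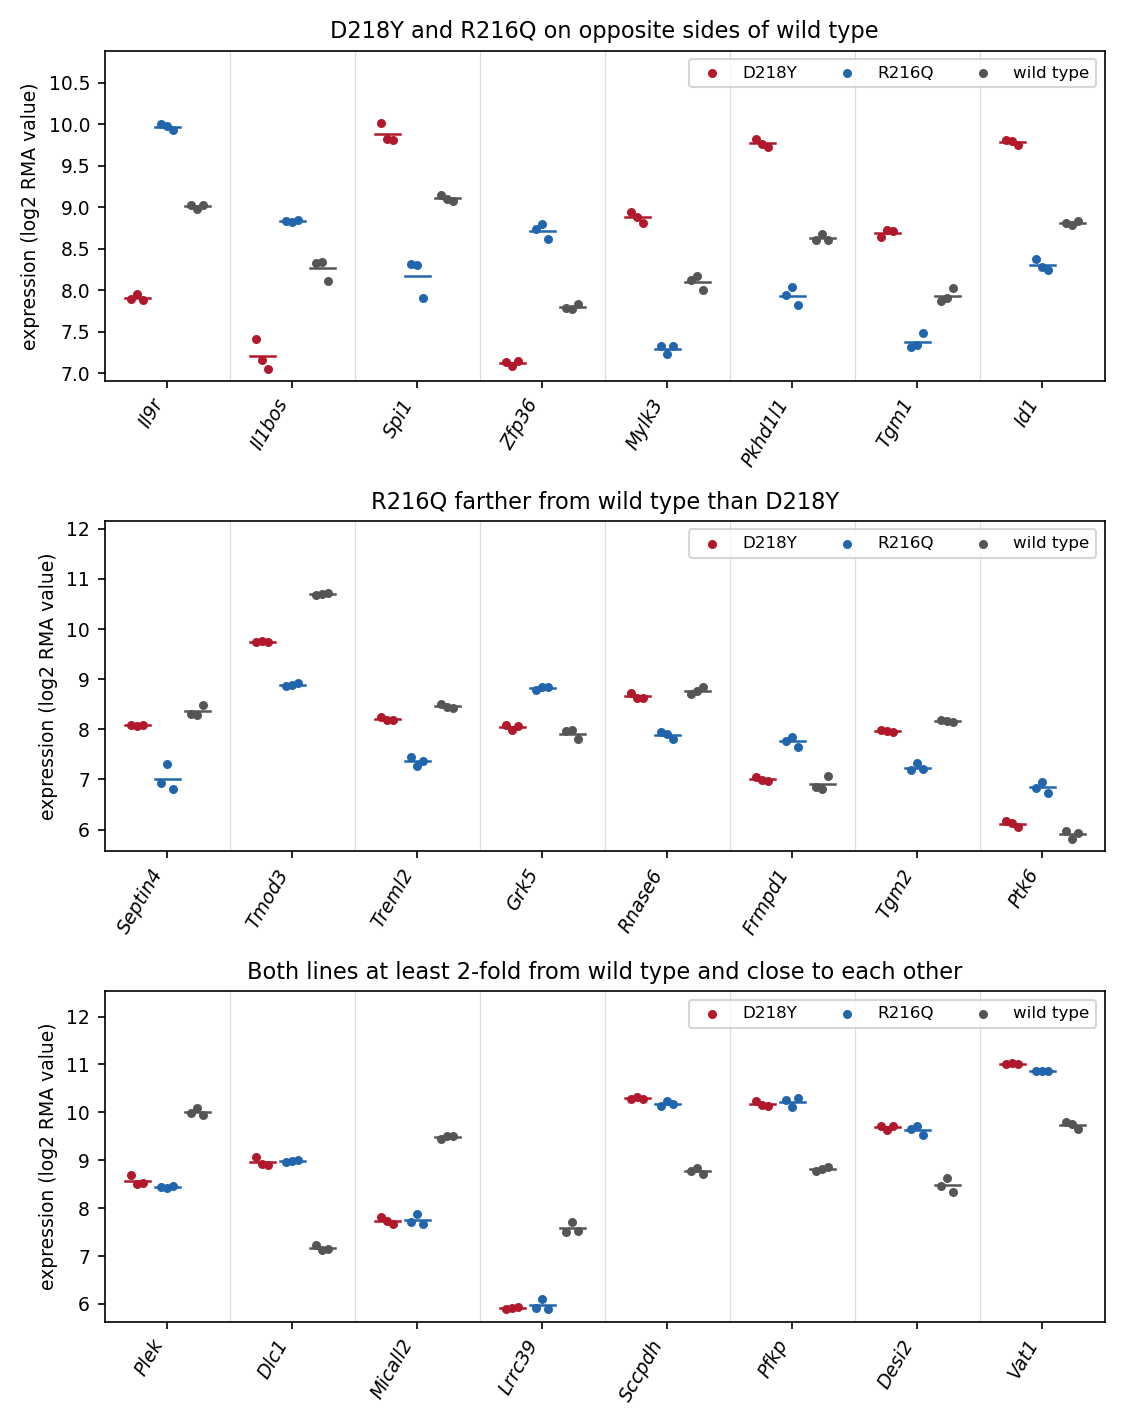
Expression (log2 RMA value, vertical axis) in every array of D218Y, R216Q and wild type for genes on opposite sides of wild type (top), genes with R216Q farther from wild type (middle) and genes at least 2-fold from wild type in both lines and close together (bottom); points are arrays and lines are means of 3. Il9r lies near 7.91 in D218Y and near 9.97 in R216Q, with wild type between, while Dlc1 overlaps between the mutant lines.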

How the data were processed

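Total RNA of 15 cultures was measured on Affymetrix mouse arrays. The deposited values are log2 expression values, made by the authors with Partek 6.6 and RMA, per the submitters' processing notes, with no settings stated. RMA makes array distributions alike and compresses fold changes of dim genes. The values were used unchanged, with no filter.

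Of 28350 probe sets 21780 had 1 gene symbol in the platform annotation, 1618 several and 4952 none; only those with 1 symbol were used, and for 996 genes with more than 1 such probe set the brightest over the 15 arrays was taken. Differences were tested with limma 3.58.1 (R 4.3.3): 1 mean per line over 15 arrays, the contrast D218Y minus R216Q, eBayes, and Benjamini-Hochberg adjustment over 19933 genes, two-sided, at 0.05. Errors written ± beside a difference are moderated SE. "Rose" and "fell" mean past this threshold. The fit was tested on simulated data.

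Members, the 27 gene lists and the tests were chosen with earlier results of these data known. Named were Gata1, the 15 largest rises and falls without overlap between arrays (leaving out small RNAs and placeholder names), up to 4 called and 2 uncalled members per list, a fixed gene set, and up to 8 genes for each relation to wild type; further list members were named after their values were seen. Alternatives covered scaling, filter, moderation, array weights, replicate block, probe sets, thresholds and left-out arrays. Same-numbered arrays of both lines did not deviate together (correlations 0.074, -0.298 and -0.061), so replicate numbers were not taken as pairs. Comparisons with wild type share its arrays and are set side by side. Promoters and microRNAs come from RefSeq (GRCm38.p6).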

Additional observations from a re-analysis of the deposited data

Results flagged for a closer look

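At 179 genes (small RNAs and placeholder names left out) D218Y and R216Q lay on opposite sides of wild type, each past the adjusted p against it, and 8 of them are named here. Lower in D218Y than in R216Q were Il9r (-2.06), Zfp36 (-1.59) and Il1bos, an antisense transcript at the interleukin 1 beta gene (-1.62). Higher in D218Y were Pkhd1l1 (1.84), Spi1 (1.71), Mylk3, a myosin kinase gene (1.58), Id1 (1.48) and Tgm1, a transglutaminase gene (1.31). These 8 were chosen by the smaller of their distances from wild type, on the same arrays. Their differences between the lines all passed the adjusted p, but after that choice they are a description. Signal of Il1bos and of the gene on the other strand was not told apart here.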

How the results depend on the processing

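Genes differing between the lines numbered 6343 and moved by over 1.5 times under array weights alone (9935; 4090 higher, 5845 lower, with a convergence warning); the cause was not tested. Elsewhere they numbered from 4557 (adjusted p under 0.01) to 7577 (without D218G replicate 3), and 5164 to 6106 without one of the 6 arrays. Genes at least 2-fold different numbered 210, or 199 to 223 without one array, 252 with array medians subtracted (189 higher, 63 lower) and 209 under quantile normalization (118 higher, 91 lower, against 133 and 77); a test against a margin of 0.5 called 579 (357 higher, 222 lower), since that margin is narrower than 2-fold. With array medians subtracted 5123 genes passed, 3884 higher and 1239 lower. The replicate number as a block gave 5844 genes, 210 at least 2-fold different, and 144 of the named genes against 148 without the block. Without one array 138 to 146 named genes passed. Gata1 (-0.08) stayed below R216Q but missed the threshold with the 6 arrays alone (-0.0837, adjusted p = 0.0786), under the replicate block (-0.0837, adjusted p = 0.0741), under cyclic loess (-0.071, adjusted p = 0.0624) and without any one array (-0.0909 to -0.0755), and it reversed with array medians subtracted (0.0052); the cause was not tested. Of 178 called genes followed, 157 passed under every setting in which they were followed, and none but Gata1 reversed while called. Single genes were not followed at adjusted p under 0.01 or in the test against the margin of 0.5. Dim genes were absent from the fit of genes above the median intensity. Scaling moved the median of all genes by at most 0.09. With 3 arrays per line, the smallest difference called was 0.08.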

Other observations

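Several groups not described above differed in single members. The shares over all genes were 16.5% higher and 15.4% lower. Of 25 adhesion receptors and annexins 9 rose and 3 fell: Anxa2, a membrane-binding annexin, was expressed at 8.82, 8.20 and 8.25 in D218Y, against 7.56, 7.07 and 7.18 in R216Q (1.15 ± 0.15), and Cd44, the hyaluronan receptor, rose by 0.82. Of 25 genes of the amino acid stress response 11 rose and 2 fell, with Cth, an enzyme of cysteine synthesis, at 0.81 and the serine pathway gene Mthfd2 at -0.53. Autophagy genes leaned lower, 13 of 26 against 3 higher (8 against 3 with array medians subtracted), and Pink1, a kinase of mitochondrial clearance, fell by 0.70. In the Bcl2 family Bid, which promotes cell death, rose by 0.87 and Bmf, of the same kind, fell by 0.33. Of 20 immediate early genes 9 fell and 4 rose (4 and 4 with array medians subtracted, 6 and 5 under cyclic loess): Egr1 rose by 0.99, and Klf6 fell by 0.98. Of 19 sterol synthesis genes 10 fell and 2 rose, or 4 and 2 with array medians subtracted.

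In the interferon list 6 of 16 genes fell and 1 rose, and 3 fell with array medians subtracted (4 under quantile or cyclic loess normalization). The one that rose, Usp18, which removes the interferon-induced modifier ISG15 from proteins, was expressed at 8.30, 8.19 and 8.21 in D218Y, against 6.90, 6.73 and 6.71 in R216Q and 7.14 to 7.16 in wild type (1.45 ± 0.05). Pfkfb4, a regulator of glycolysis, had the largest fall of the low-oxygen list (-1.36 ± 0.04), in which 6 of 17 genes fell and 4 rose (3 and 5 with array medians subtracted). Among all genes 15.4% were lower and 16.5% higher.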
